A study of Mus musculus and Homo sapiens with 4 samples.

Results

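The transcripts of 9 genes that p53 is known to activate were compared between a library labelled VCaP and a library labelled VCaP ERα. The genes were MDM2, GDF15, TP53I3, SESN1, FAS, BBC3, BAX, FDXR and RRM2B, and they were taken by symbol from the 25932 entries of the deposited files. Each symbol stood on 1 entry, so 9 of the 25932 entries are described here. By its label, the first came from VCaP, a prostate cancer cell line, and the second from the same line made to overexpress oestrogen receptor alpha (ERα) stably; the promoter that drives the receptor is not given in the sources used here. The markers of cell type given below go against the label of the first, which is therefore called the library labelled VCaP throughout. The labels give passage 5 to 6 for the VCaP cells and passage 4 to 5 for the VCaP ERα cells, both were grown in DMEM with fetal bovine serum and antibiotics, and the labels name no hormone treatment for either. Total RNA was sequenced after removal of ribosomal RNA, with the strand of each transcript kept, from 1 library of each. Differences between 2 such libraries cannot be set against a spread between replicates, and P-values are not given.

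p53 is a transcription factor that is held low by the ubiquitin ligase MDM2 and accumulates when DNA is damaged or oncogenes are active. It then binds response elements near its target genes, which stop the cell cycle, repair DNA, alter metabolism or start apoptosis, and it activates MDM2 itself, which closes a feedback loop. In prostate tumours p53 is often lost or mutated late in the disease. Many of its targets also answer to other factors, so that the level of a target transcript is not by itself a measure of p53.

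Expression was given by the authors as RPKM, which divides the reads of an entry by its length and by the mapped total, so that levels can be set side by side between genes. The log2 ratio used here compares VCaP ERα with the library labelled VCaP after 1 was added to each RPKM value. It is negative where the value was lower in VCaP ERα, and the added 1 makes it smaller than the true ratio for genes of low level. The number of reads behind each value is not known. The 9754 entries that reached 1 RPKM in each of the libraries had a median log2 ratio of -0.59, and each change is therefore also given relative to that shift, as the centred log2 ratio.

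The libraries differed in their identity genes before any p53 target is considered. ESR1, which encodes ERα, had 15.7 RPKM in the library labelled VCaP against 209 RPKM in VCaP ERα, in the direction of the labels. Against the label of the other library, 9 of 9 prostate luminal markers were higher in VCaP ERα: they summed to 18.4 RPKM in the library labelled VCaP (0 to 8.18 per gene) and to 1774 RPKM in VCaP ERα (3.16 to 694). KLK4 and FOLH1 were listed at 0 in the library labelled VCaP, where KLK2 and HOXB13 had 0.0264 and 0.0479 RPKM. In the other direction, 7 of 7 luminal breast markers were higher in the library labelled VCaP, with a sum of 3980 RPKM (3.14 to 1625) against 199 RPKM in VCaP ERα (0.0354 to 182). Of 4 basal markers 2 were lower in VCaP ERα and 2 higher, with sums of 42.7 and 2.62 RPKM. In such bulk RNA, fewer cells of a type and less RNA per cell cannot be told apart. Which cells the library labelled VCaP came from, and hence whether its targets were read in the same line as those of VCaP ERα, is not settled by these values. The part of these differences in the values of the p53 targets was not tested, and an effect of ERα and a difference between the cultures cannot be told apart.

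Of the 9 targets, 8 had a lower RPKM value in VCaP ERα (6 after centring) and 1, FAS, had a higher value. Among the 13954 entries with at least 1 RPKM in a library, lower values were the more frequent as deposited (8934) but not after centring (6584). Over all entries, 10684 were lower and 12087 higher as deposited. The counts of lower genes in the lists below are to be read against those of the 13954 entries. A log2 ratio below -2 was reached by 4 of 9 (GDF15, MDM2, BBC3 and BAX), that is 44.4%, where 6.56% of all entries and 12.2% of the 13954 entries with at least 1 RPKM in a library lay below -2. After centring 1 of 9 (GDF15), or 11.1%, lay below -2, against 6.22% of the entries reaching 1 RPKM in a library, and after quantile normalization again 1 of 9, against 7.14%. Below -1 lay 6 of 9, or 66.7%, against 18.5% of all entries and 34.3% of those reaching 1 RPKM. Above 1 lay FAS alone, against 9.16% and 17.0%, and no target lay above 2, where 2.27% and 4.21% of entries lay; FAS lay above 2 after centring, after quantile normalization and with a pseudocount of 0.1. The median log2 ratio of the 9 was -1.94, from -4.65 to 1.68, while that of the entries reaching 1 RPKM in a library was -0.50. Summed over the 9 genes, the level was 313 RPKM in the library labelled VCaP against 66.2 RPKM in VCaP ERα, and GDF15 made up 62.4% of the former sum and 10.3% of the latter.

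**Figure D1:**
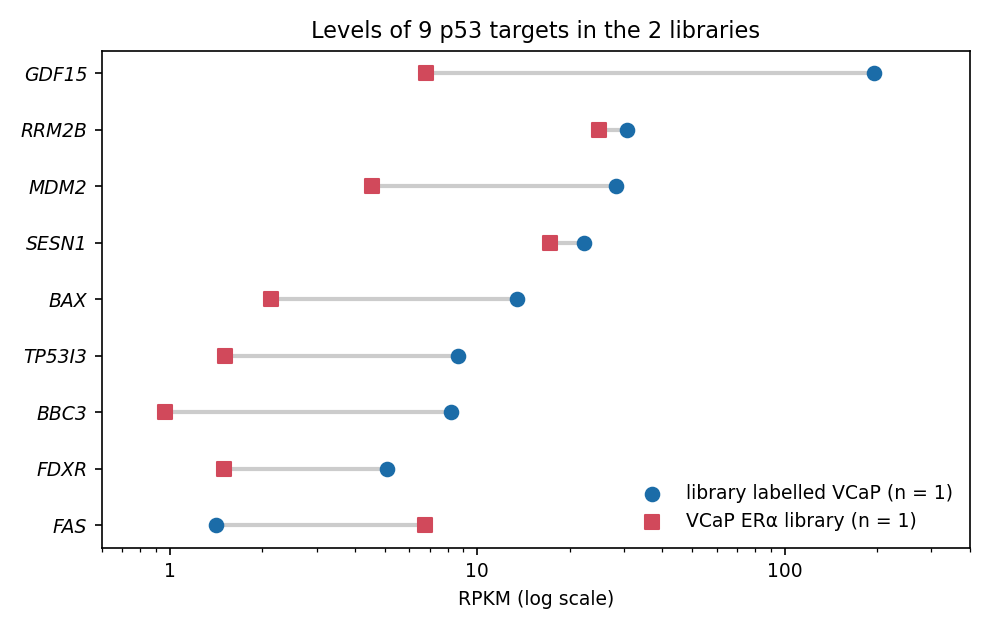
RPKM (log scale) of each of the 9 p53 targets in the library labelled VCaP (blue circles) and the VCaP ERα library (red squares), 1 library each, ordered by the level in the library labelled VCaP. The red square lies to the left of the blue circle for 8 genes, by the widest gap for GDF15 (195 to 6.83 RPKM), close to it for RRM2B and SESN1, and to the right of it for FAS (1.41 to 6.74 RPKM).

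The order of the levels differed between the libraries. In the library labelled VCaP it ran from GDF15 through RRM2B, MDM2, SESN1, BAX, TP53I3, BBC3 and FDXR to FAS, the lowest. In VCaP ERα it ran from RRM2B through SESN1, GDF15, FAS, MDM2, BAX, TP53I3 and FDXR to BBC3, the only target under 1 RPKM in that library. FAS thus moved from place 9 to place 4 and GDF15 from place 1 to place 3, while BAX stood just above TP53I3 in both. No spread over replicates exists to say which neighbours in these orders differ.

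MDM2, the ligase that marks p53 for degradation, lies on chromosome 12 (67488247 to 67520481 of hg18, the human build named in the submitters' processing notes). Its level was 28.3 RPKM in the library labelled VCaP against 4.53 RPKM in VCaP ERα, which is 6.24-fold lower as a plain ratio of RPKM values. The log2 ratio was -2.40, or -1.81 when centred, and 1068 of the 25932 entries had a lower log2 ratio. MDM4, the relative of MDM2 that blocks p53 without degrading it, had 4.29 and 1.46 RPKM. The ratio of the MDM2 level to the MDM4 level, which does not depend on how the libraries are scaled, was 6.59 in the library labelled VCaP, against 3.10 in VCaP ERα. MDM2 transcripts were therefore lower against those of MDM4 as well as in RPKM.

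Among the 15 regulators of p53 examined, 9 had lower and 6 had higher values in VCaP ERα, with a median log2 ratio of -0.31, less far from 0 than that of the 9 targets; after centring 7 were lower. Of the 13954 entries reaching 1 RPKM in a library, 8934 were lower, with a median of -0.50. Below -2 lay 2 of the 15 (13.3%), against 12.2% of those entries. The regulators as a set thus stood near the entries at large. PPM1D, the phosphatase WIP1 that switches the damage response off and is itself a p53 target, had 86.1 RPKM in the library labelled VCaP against 3.25 RPKM in VCaP ERα (log2 ratio -4.36). Because PPM1D differed more than MDM2, the MDM2 level was 0.329 of the PPM1D level in the library labelled VCaP and 1.39 times it in VCaP ERα. TP63, a relative of p53 and a marker of basal epithelium, had 3.79 and 0.0400 RPKM (-2.20). HIPK2, a kinase that phosphorylates p53, went the other way with 6.37 and 32.2 RPKM (2.17), and was the highest of the 15 in VCaP ERα.

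Of the 4 targets that act in cell death, 3 were lower in VCaP ERα and FAS was higher. BBC3 encodes PUMA, a BH3-only protein that frees BAX and BAK from their inhibitors. Its entry on chromosome 19 (52415919 to 52427863) had 8.19 RPKM in the library labelled VCaP against 0.962 RPKM in VCaP ERα, 8.51-fold lower, with a log2 ratio of -2.23. BAX, which forms pores in the outer mitochondrial membrane, lies on the same chromosome (54149929 to 54156867) and had 13.4 and 2.12 RPKM, 6.33-fold lower, with a log2 ratio of -2.21. TP53I3, a quinone oxidoreductase also known as PIG3 that generates reactive oxygen species (chromosome 2, 24153809 to 24161232), had 8.66 and 1.51 RPKM, with a log2 ratio of -1.94. Centred log2 ratios of these genes were -1.64, -1.62 and -1.35, so each stayed below -1 and none below -2. The entry of TP53I3 lies wholly within the span of BC029459, which had 0.422 and 0.587 RPKM; whether strand was used in the counting is not given in the sources used here.

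FAS, the death receptor that p53 can induce at the cell surface, was the exception. Its entry on chromosome 10 (90740268 to 90765522) had 1.41 RPKM in the library labelled VCaP against 6.74 RPKM in VCaP ERα, 4.78-fold higher, with a log2 ratio of 1.68 or 2.27 when centred. The first 816 bp of its span by coordinate are shared with ACTA2, which went in the opposite direction with 4.84 and 0.976 RPKM. Of 5 signalling partners of the receptor, 4 were lower in VCaP ERα, or 3 after centring. FADD, the adaptor that binds the receptor, had 24.1 and 2.56 RPKM (log2 ratio -2.82), so the FAS level was 0.0584 of the FADD level in the library labelled VCaP and 2.64 times it in VCaP ERα. CASP8, the initiator caspase, had 2.05 and 0.841 RPKM (-0.73). CASP10, its relative, had 1.59 and 0.111 RPKM (-1.22). The inhibitor CFLAR had 3.50 and 2.13 RPKM (-0.52), with the sign turned after centring (0.07). The ligand FASLG was listed at 0 in the library labelled VCaP and had 0.0222 RPKM in VCaP ERα, so it was near 0 in both.

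**Figure D2:**
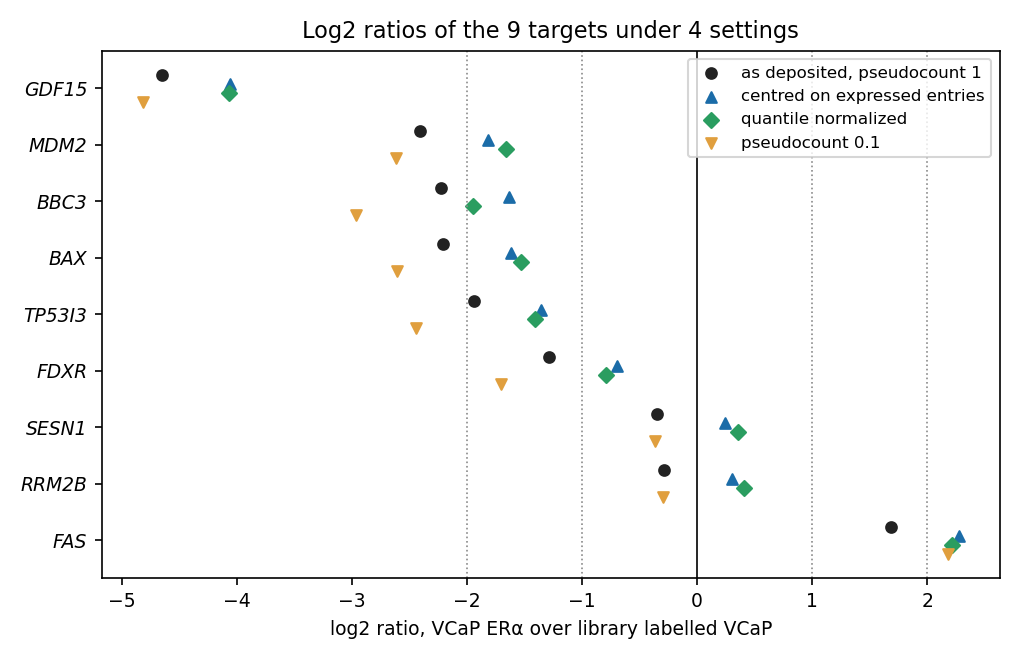
Log2 ratio of VCaP ERα over the library labelled VCaP for each of the 9 p53 targets (horizontal axis) under 4 settings: RPKM as deposited with a pseudocount of 1 (black circles), centred on the median of expressed entries (blue triangles), after quantile normalization (green diamonds) and with a pseudocount of 0.1 (orange triangles). Dotted lines mark 1 and 2 in each direction; SESN1 and RRM2B are the 2 genes whose points lie on both sides of 0.

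The BCL2 family, within which BBC3 and BAX act, included lower values in VCaP ERα among inhibitors and promoters of apoptosis. Of 11 further members, 10 were lower and 5, or 45.5%, had a log2 ratio below -2, with a median of -1.37, where 12.2% of the entries reaching 1 RPKM in a library lay below -2. After centring 8 of 11 were lower, the median was -0.78 and 1 lay below -2 (9.09%, against 6.22%), and after quantile normalization 2 did. Among the inhibitors, MCL1 had 138 and 22.5 RPKM (log2 ratio -2.56), BCL2L1 had 122 and 28.7 RPKM (-2.05), BCL2 had 2.17 and 0.226 RPKM (-1.37), BCL2L2 had 7.24 and 3.99 RPKM (-0.72; 0.04 after quantile normalization) and BCL2A1 was under 1 RPKM in both. BAX was 0.110 of the BCL2L1 level in the library labelled VCaP and 0.0741 of it in VCaP ERα, and BBC3 was 0.0671 and 0.0335 of it. Against MCL1, BAX was 0.0974 and 0.0943, and BBC3 was 0.0593 and 0.0427. Against BCL2, BAX was 6.18 times and 9.39 times, and BBC3 was 3.77 times and 4.26 times. The direction of the ratio thus depended on the inhibitor taken, and of the 6 ratios the values of BAX and BCL2 and of BBC3 and BCL2L1 differed by more than 1.5 times between the libraries.

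Among the promoters of apoptosis in this family, BAK1, which forms pores as BAX does, had 7.63 and 3.11 RPKM (log2 ratio -1.07). The BAX level was 1.76 times the BAK1 level in the library labelled VCaP and 0.684 of it in VCaP ERα. In VCaP ERα the levels of the pore formers lay within 1.5 times of each other, so their order there is not firm. The BH3-only genes BMF (14.2 and 1.43 RPKM, log2 ratio -2.64), BCL2L11 (12.9 and 1.59 RPKM, -2.42) and BIK (44.3 and 8.92 RPKM, -2.19) were lower in VCaP ERα, and HRK was under 1 RPKM in both. BAD, a BH3-only gene controlled by growth factor signalling, was the exception with 23.4 and 74.5 RPKM (1.63).

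SESN1, FDXR and RRM2B act in metabolism, oxidative stress and repair, and they differed least among the targets that were lower. SESN1, a sestrin that restrains mTORC1 when leucine is scarce, lies on chromosome 6 (109414338 to 109521970) and had 22.2 RPKM in the library labelled VCaP against 17.2 RPKM in VCaP ERα. RRM2B, the p53-inducible small subunit of ribonucleotide reductase that supplies nucleotides for repair and for mitochondrial DNA, lies on chromosome 8 (103285907 to 103320522) and had 30.6 and 24.8 RPKM. The log2 ratios were -0.35 and -0.29, and their sign turned to 0.24 and 0.30 after centring and to 0.36 and 0.40 after quantile normalization, so no direction is given for either. FDXR, the reductase that passes electrons to ferredoxin in mitochondria (chromosome 17, 70370214 to 70380751), had 5.09 and 1.49 RPKM, 3.40-fold lower, with a log2 ratio of -1.29 or -0.70 when centred.

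The paralogues and partners of these genes gave values in both directions. SESN2, a sestrin that p53 and ATF4 are known to induce, had 14.8 RPKM in the library labelled VCaP against 0.646 RPKM in VCaP ERα (log2 ratio -3.26), whereas SESN3, which FOXO factors are known to induce, had 17.6 and 39.6 RPKM (1.13). The SESN1 level was 1.50 times that of SESN2 in the library labelled VCaP and 26.6 times in VCaP ERα. SESN3 was 0.794 of SESN1 in the library labelled VCaP and 2.30 times it in VCaP ERα. The leading sestrin transcript was accordingly SESN3 in VCaP ERα. In the library labelled VCaP it was SESN1, though within 1.5 times of SESN3 and, narrowly, of SESN2 (1.499 times). The order of the sestrins there is therefore not firm. Of the GATOR genes through which sestrins act, MIOS had 9.15 and 11.2 RPKM (0.26), WDR24 had 2.56 and 2.65 RPKM (0.04), WDR59 had 11.4 and 2.23 RPKM (-1.94) and DEPDC5 had 1.12 and 0.551 RPKM (-0.45; 0.14 when centred).

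For ribonucleotide reductase, the S-phase small subunit RRM2 had 6.48 RPKM in the library labelled VCaP against 0.946 RPKM in VCaP ERα (log2 ratio -1.94), and the large subunit RRM1 had 13.3 and 7.46 RPKM (-0.75; 0.02 after quantile normalization). RRM2B was 4.73 times the RRM2 level in the library labelled VCaP and 26.3 times in VCaP ERα. Against RRM1 it was 2.30 times and 3.33 times. The transcript of the p53-inducible small subunit was thus the more abundant of the small subunit transcripts in both libraries, and by more in VCaP ERα. Of the ferredoxins that FDXR reduces, FDX1 had 4.35 and 8.31 RPKM (0.80) and FDX1L had 7.75 and 1.93 RPKM (-1.58), so the FDX1 level was 0.855 of the FDXR level in the library labelled VCaP and 5.56 times it in VCaP ERα.

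GDF15, a secreted cytokine of the TGF-β superfamily that answers to many forms of cell stress, showed the widest difference of the 9. Its entry on chromosome 19 (18357968 to 18360986) had 195 RPKM in the library labelled VCaP, where 99.4% of entries stood at or below it, and 6.83 RPKM in VCaP ERα, where 84.3% did. This was 28.6-fold lower, with a log2 ratio of -4.65, or -4.06 when centred, and 109 of the 25932 entries had a lower log2 ratio. Against SESN1 the GDF15 level was 8.82 times in the library labelled VCaP and 0.397 of it in VCaP ERα, and against MDM2 it was 6.91 times and 1.51 times. GDF15 had the log2 ratio farthest from 0 of the 9 targets under each of the alternatives tried.

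Because GDF15 is also induced through ATF4 and EGR1, 9 genes of those stress responses were read beside it. Their median log2 ratio was -0.46, close to the -0.50 of entries reaching 1 RPKM in a library, and 7 of 9 were lower in VCaP ERα (4 after centring). Below -1 lay 4 of 9, or 44.4%, against 34.3% of those entries, and 1 of 9 after centring. EGR1 had 5.21 and 1.55 RPKM (log2 ratio -1.28), TRIB3, a pseudokinase induced by ATF4, had 26.5 and 9.18 RPKM (-1.43), and CHAC1, a glutathione-degrading enzyme, had 3.10 and 0.808 RPKM (-1.18). ASNS, which encodes asparagine synthetase, had 27.2 and 19.5 RPKM (-0.46; 0.13 when centred), and ATF3 was under 1 RPKM in both. ATF4 had 94.0 and 82.3 RPKM (log2 ratio -0.19; 0.40 when centred) and DDIT3, which encodes CHOP, had 17.6 and 24.1 RPKM (0.43). Genes of these responses thus lay on both sides of 0. DDIT4, a stress-induced brake on mTORC1, had 29.1 and 5.99 RPKM (-2.11), and NUPR1, a small stress-induced chromatin protein, had 1.28 and 84.9 RPKM (5.24), the highest of the 9 in VCaP ERα.

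Further p53 targets were read in 5 lists by role, which hold 47 genes with an entry. Of these 42 were lower and 5 were higher in VCaP ERα, with a median log2 ratio of -1.71; after centring 34 of 47 were lower and the median was -1.12. Below -2 lay 21 of 47, or 44.7%, and below -1 lay 29, or 61.7%, to be read against the 12.2% and 34.3% of entries reaching 1 RPKM in a library. After centring 14 of 47, or 29.8%, lay below -2, against 6.22%, and after quantile normalization 17, or 36.2%, against 7.14%. Above 1 lay 1 gene (3 after centring), TP53AIP1, with 0.0549 and 1.22 RPKM, and none lay above 2. The median level of the 47 genes was 13.9 RPKM in the library labelled VCaP against 1.45 RPKM in VCaP ERα. The lists therefore stood on the same side as the 9 targets, with members on both sides of 0.

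**Figure D3:**
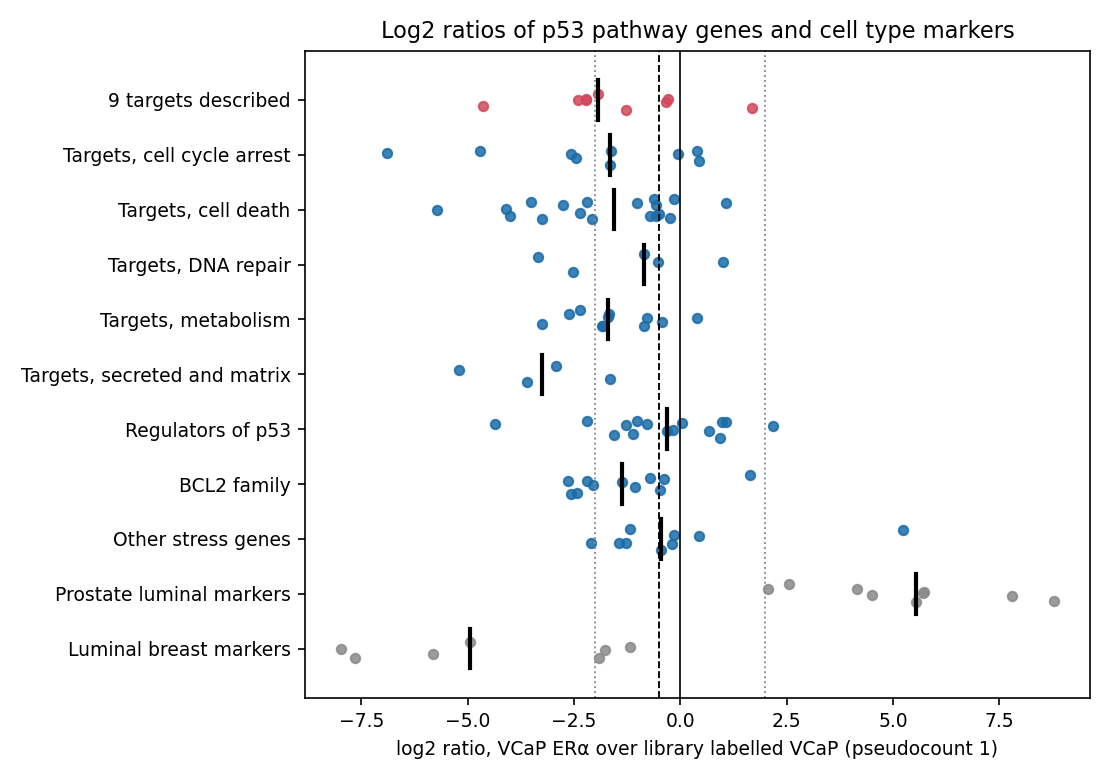
Log2 ratio of VCaP ERα over the library labelled VCaP (horizontal axis, pseudocount 1) for the 9 targets described (red), the genes of the other lists (blue) and markers of cell type (grey); each point is 1 gene and each black bar the median of its list. The dashed line marks the median of entries reaching 1 RPKM in a library (-0.50) and the dotted lines a log2 ratio of 2 in each direction; the medians of the 5 lists of targets lie left of the dashed line, and the prostate and breast markers lie on opposite sides.

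Of the 9 genes of cell cycle arrest, 7 were lower and 4 (44.4%) lay below -2, against 12.2% of entries reaching 1 RPKM in a library. After centring 6 were lower and 2 (22.2%) lay below -2, against 6.22%, and after quantile normalization 2 did. PLK2, a kinase of the centrosome cycle, had 266 RPKM in the library labelled VCaP against 1.24 RPKM in VCaP ERα (log2 ratio -6.89). SFN, which encodes 14-3-3σ and is typical of stratified and some glandular epithelia, had 32.4 and 0.273 RPKM (-4.71). SERTAD1, a regulator of CDK4, had 20.2 and 2.59 RPKM (-2.56), and BTG2, an antiproliferative cofactor, had 55.7 and 9.34 RPKM (-2.45). CCNG1, the cyclin G1 gene that dampens p53 through MDM2, was the highest of them in VCaP ERα and went the other way with 35.0 and 46.1 RPKM (0.39).

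Of the 18 genes of cell death, 17 were lower and 9 (50.0%) lay below -2, or 12 and 6 (33.3%) after centring, with the same shares of entries to read against. PHLDA3, an inhibitor of AKT, had 86.7 RPKM in the library labelled VCaP against 0.663 RPKM in VCaP ERα (log2 ratio -5.72). NINJ1, which takes part in rupture of the plasma membrane, had 88.8 and 4.23 RPKM (-4.10), and PERP, a desmosomal protein, had 385 and 23.0 RPKM (-4.01). BID, the BH3-only protein cut by caspase 8, had 67.7 and 4.99 RPKM (-3.52). The other genes below -2 were the receptors TNFRSF10B (17.5 and 0.948 RPKM, -3.24), TNFRSF10C (5.62 and 0.288 RPKM, -2.36) and EDA2R (5.72 RPKM in the library labelled VCaP, listed at 0 in VCaP ERα), the RNA-binding ZMAT3 (5.79 and 0.484 RPKM, -2.19) and the nuclease AEN (19.8 and 3.90 RPKM, -2.09). TP53INP1, a cofactor of p53 in stress, was the highest of them in VCaP ERα with 61.8 RPKM against 87.2 RPKM in the library labelled VCaP (-0.49; 0.10 when centred).

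The genes of DNA repair, metabolism and secretion followed with fewer members. Of 5 repair genes 4 were lower, with a median log2 ratio of -0.86, or 3 with a median of -0.27 after centring. Below -2 lay 2 of them as deposited (40.0%, against 12.2% of entries reaching 1 RPKM in a library) and 1 after centring or quantile normalization, the 2 being DDB2 (14.3 and 0.516 RPKM, log2 ratio -3.34) and XPC (25.7 and 3.67 RPKM, -2.51), which both recognise ultraviolet damage. FBXO22 had the highest level of the 5 in VCaP ERα, with 11.9 RPKM against 17.6 RPKM in the library labelled VCaP (-0.52; 0.07 when centred). Of 11 genes of metabolism and autophagy 10 were lower (9 after centring) and 3 (27.3%) lay below -2, or 2 (18.2%) after centring. The 3 were SESN2, given above, DRAM, a lysosomal protein of autophagy (6.66 and 0.242 RPKM, -2.63), and SPATA18, which acts in mitochondrial quality control (4.34 and 0.0376 RPKM, -2.36). FUCA1, a lysosomal fucosidase, was the highest of the 11 in both libraries with 38.6 and 11.1 RPKM (-1.71).

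All 4 genes of secreted or matrix proteins were lower in VCaP ERα and 3 (75.0%) lay below -2, as deposited and after centring. Of the entries reaching 1 RPKM in a library, 12.2% lay below -2 as deposited and 6.22% after centring. IGFBP3, which binds insulin-like growth factors, had 62.5 and 0.739 RPKM (log2 ratio -5.19), THBS1, an inhibitor of angiogenesis, had 50.8 and 3.29 RPKM (-3.59), and KITLG, the ligand of KIT, had 9.19 and 0.344 RPKM (-2.92). Several of the genes with the widest differences, such as SFN and PERP, are also known as genes of particular epithelia. They were lower in VCaP ERα, as were 7 of 7 luminal breast markers and 2 of 4 basal markers. The other 2 basal markers and 9 of 9 prostate luminal markers were higher. The part of cell type in these genes was not tested.

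Each target was also set beside the 10 nearest entries on its chromosome that reached 1 RPKM in a library, 5 on either side by start. These are entries rather than separate genes: FRS2 beside MDM2, SNRNP70 beside BAX and KIAA1683 beside GDF15 each stood on more than 1 entry. GDF15 (-4.65, neighbours' median -1.13), MDM2 (-2.40, -0.30), BAX (-2.21, -0.75) and TP53I3 (-1.94, -0.28) had a lower log2 ratio than each of their 10 neighbours. BBC3 had a log2 ratio lower than 9 of its 10 neighbours, all of which were lower in VCaP ERα, with a median of -1.29. FDXR stood within its surroundings, with 4 of 10 neighbours lower than its -1.29 and a median of -0.95. SESN1 and RRM2B had 6 and 7 of 10 neighbours with a lower log2 ratio (medians -0.60 and -0.87), and FAS had a higher log2 ratio than each of its 10 neighbours, whose median was -0.71. The log2 ratios of GDF15, TP53I3 and FAS thus lay outside the range of the entries beside them, whose nearest values were -2.44, -1.21 and 0.68. Those of MDM2 and BAX did so only by a small margin. BC065505, which starts just past the end of MDM2, had 25.3 and 4.68 RPKM, levels near those of MDM2, and a log2 ratio of -2.21. Whether it is a transcript apart from MDM2 is not given in the sources used here. The next lowest neighbour of MDM2 was DYRK2, with a log2 ratio of -1.77. PPP1R15A, a neighbour of BAX, had -2.04. BAX is therefore not set apart from PPP1R15A, and MDM2 is not set apart from BC065505, which may not be a separate gene.

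**Figure D4:**
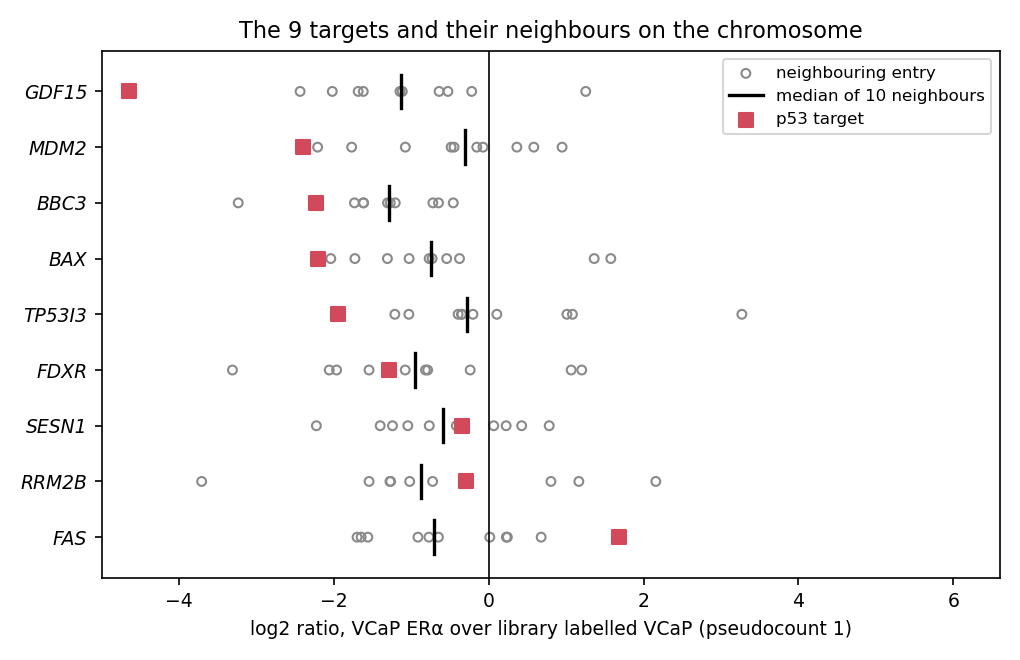
Log2 ratio of VCaP ERα over the library labelled VCaP (horizontal axis, pseudocount 1) for each of the 9 p53 targets (red squares), its 10 nearest entries on the chromosome that reached 1 RPKM in a library (open circles) and their median (black bars). The red square lies left of all 10 circles for GDF15, MDM2, BAX and TP53I3, right of all 10 for FAS, and among them for BBC3, FDXR, SESN1 and RRM2B.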

How the data were processed

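The authors deposited 1 RPKM value per entry for each human library, with no normalization between libraries stated. The submitters' processing notes name CASAVA 1.8 and the builds hg18 and mm10; the aligner and the counting tool are not given in the sources used here. The files hold 25932 entries with UCSC identifiers, symbols and coordinates. The 2 mouse fibroblast libraries of the series were not used here. An entry belonged to a gene when its symbol field, split at each bar, held the symbol, and the entry of highest mean RPKM was taken. Log2 ratios took a pseudocount of 1, every entry was kept, and thresholds of 1 and 2 were applied in each direction. With 1 library per group no test was made. Among 2146 entries above 0 and under 0.5 RPKM in both libraries, the commonest ratio of values (0.974) recurred in 38 entries, which does not establish the depth, so no interval or detection floor is given.

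The members and gene lists were chosen with earlier results of these data known, and the lists come from general knowledge. Genes were named when they were members, partners of a member, past a log2 ratio of 2, or highest of their list in a library; 2 genes of the lists are not reported here. DDIT3, EGR1, TRIB3, CHAC1, ASNS and ATF3 fell outside this rule and were named after their values were seen. MDM4, set against MDM2, and TP53AIP1, the further target above 1, also fell outside it. Of the genes listed as partners of sestrins, 4 had no entry under the symbols used. Alternatives were a pseudocount of 0.1, centring on the median of entries that reached 1 RPKM in each library, quantile normalization, a minimum of 1 RPKM in a library, and summed entries of a symbol. The scripts were tested on simulated data. The tools were pandas 2.3.3, numpy 2.4.6 and, for plots, matplotlib 3.10.9 under Python 3.11.15.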

Additional observations from a re-analysis of the deposited data

How the results depend on the processing

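A value was taken as unchanged within 1.5 times, or 0.585 on the log2 scale, since no replicate spread exists. Among the 9 targets and the 47 further targets, 70 of 95 recomputed values were unchanged in this sense and 25 moved, with no reversal of a log2 ratio beyond 1. Part of this tally was fixed beforehand, so it does not measure robustness. Each of these symbols stood on 1 entry, so summing changed nothing, and the 9 targets all reached 1 RPKM in a library. Centring subtracted the shift of -0.590 from every log2 ratio, just past the limit of 0.585, and so moved each of them. Centring moved the log2 ratios of the 9 targets to -4.06 (GDF15), -1.81 (MDM2), -1.64 (BBC3), -1.62 (BAX), -1.35 (TP53I3), -0.70 (FDXR), 0.24 (SESN1), 0.30 (RRM2B) and 2.27 (FAS). Their median became -1.35, with 1 target below -2 and 1 above 2, and the median of the further targets became -1.12, with 3 of them above 1. Quantile normalization moved MDM2 to -1.66, BAX to -1.53, SESN1 to 0.36 and RRM2B to 0.40, and left 1 target below -2, 1 above 2 and 2 further targets above 1. The pseudocount of 0.1 moved BBC3 to -2.96, put 1 target above 2, and put 4 further targets above 1 and 2 above 2. Among all entries, the number below -2 was 1701 as deposited, 868 after centring, 997 after quantile normalization and 2958 with the pseudocount of 0.1; the number above 2 was 588, 1238, 1003 and 4238. The minimum of 1 RPKM and the summing of entries could not move the values of the 9 targets, for the reasons given above. Leaving out a library was not possible with 1 per group, and the number of reads, which limits the values near 0, is not known.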
